A study of Fukomys damarensis with 47 samples.

Results

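Nuclear genes for mitochondrial respiration, mitochondrial translation, protein import and metabolite transport were followed in bone cell cultures of the Damaraland mole-rat (Fukomys damarensis). Genes were chosen by the start of their symbol, using 14 prefixes such as NDUF, SDH, COX, ATP5, MRPL, MRPS, TIMM, TOMM and SLC25. Of 1594 identifiers that could be paired with a name, 1316 had a symbol and 23 of these matched a prefix. Names were at hand for only part of the genes, so mitochondrial genes without one were not followed. A level of at least 2 CPM (counts scaled to a common total) in no fewer than 12 libraries, or 25%, was reached by 22 of the 23 genes, among 11047 genes tested in all. The remaining gene, MRPL4, was too low to be tested. They comprise 7 genes of the respiratory chain and its assembly, 9 named as mitochondrial ribosomal proteins, 3 of protein import and 3 carriers of the inner membrane.

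RNA-Seq was performed on 47 cultures enriched for bone marrow stromal cells from 16 females of 8 natal colonies. There were 5 queens, which are breeding females (aged 1004 to 1132 days), and 11 nonbreeders. In the study, females assigned to become queens left their natal colony and were housed in new tunnels with a male unrelated to them. The nonbreeders were 7 helpers, which stay in their natal colony without breeding (1003 to 1232 days), and 4 solitaires, which were housed alone (1105 to 1231 days). Colony below means the natal colony. The pooled long bones of an animal gave 26 libraries and its lumbar vertebrae (LV) 21, and each culture received 10 nM estradiol (18 libraries) or vehicle (29 libraries) for 24 hr. All cultures were plated with a ROCK inhibitor and basic fibroblast growth factor, washed to remove nonadherent cells, and treated once clusters of stromal cells were visible. The days to this point varied and are not among the labels. The vertebrae, but not the long bones, were digested with collagenase before the marrow was spun out, so bone type and digestion cannot be told apart.

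Mitochondria make ATP with a chain of inner membrane complexes, of which complex I takes electrons from NADH, complex II from succinate, complex IV passes them to oxygen, and ATP synthase uses the resulting proton gradient. A few subunits are encoded by mitochondrial DNA and made on mitochondrial ribosomes, whose proteins, like nearly all others of the organelle, are encoded in the nucleus. These proteins are imported through the TOM complex of the outer membrane and the TIM complexes of the inner membrane, while SLC25 carriers exchange metabolites with the cytosol.

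The libraries held 5329563 to 16327339 counts, the median being 8784879. The tested mitochondrial genes held between 0.195% and 0.311% of the counts of a library. Across all tested genes, the median correlation of a library with the others was between 0.741 and 0.936. The lowest values were those of the long bone cultures of queen MAF006 (0.741 with estradiol and 0.790 with vehicle). In the long bones of helper WEF002, the vehicle and estradiol libraries correlated at 0.893 and those of queen LAF007 at 0.875, the lowest of such pairs, whose median was 0.964. Values without these animals are given where they matter. The summed level of 14 leukocyte genes ranged from 47.9 CPM to 4231 CPM between libraries, and that of 12 stromal and osteoblast genes from 356 CPM to 6715 CPM. As these are bulk samples, fewer cells of a type and less RNA per cell cannot be told apart.

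Most of the mitochondrial genes were among the steadier genes of these cultures. The median standard deviation over the 47 libraries was 0.35 log2 CPM for the 22 genes and 0.55 log2 CPM for all 11047. The steadiest was MRPS9, a protein of the small mitochondrial ribosomal subunit, with a level between 26.2 CPM and 48.0 CPM, a median of 34.9 CPM and a standard deviation of 0.15 log2 CPM. Of all tested genes, 0.0634% varied less than MRPS9. ATP5F1B, the catalytic beta subunit of ATP synthase (ENSFDAG00000001716), was nearly as steady. Its level was between 576 CPM and 776 CPM with a median of 674 CPM, a 1.35-fold range, and 0.0815% of genes varied less. SLC25A12, a carrier that exchanges aspartate for glutamate, followed with a range from 24.5 CPM to 59.6 CPM and a standard deviation of 0.21 log2 CPM. The levels of 21 of the 22 genes were between percentiles 59.4 and 98.5 of all tested genes, NDUFA4L2 being at 41.4, and genes of high level vary less by counting error.

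**Figure D1:**
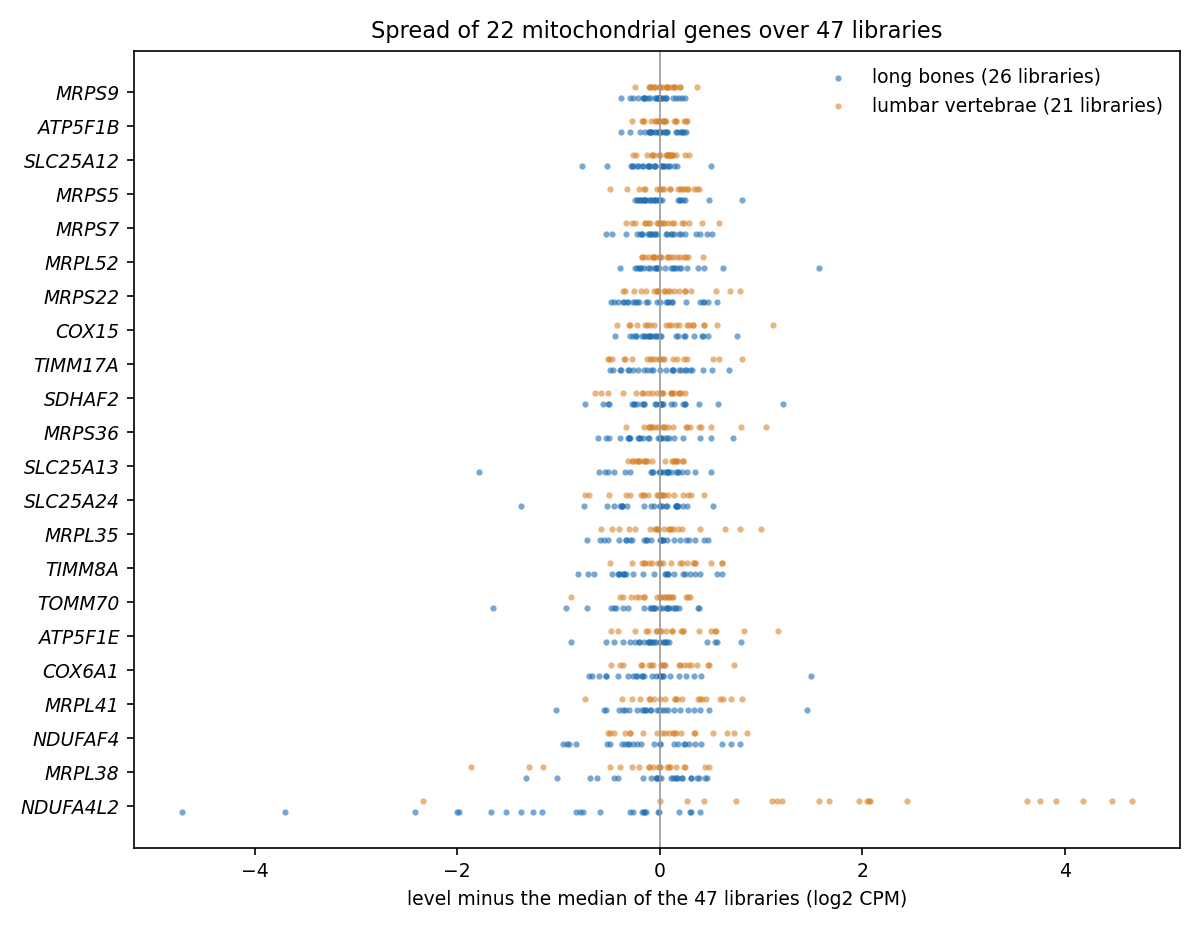
Each point is one of 47 libraries, placed by its level of a gene minus the median level of that gene (x axis, log2 CPM), with one row per gene in order of standard deviation and colours for bone type. MRPS9 and ATP5F1B have the narrowest rows, and NDUFA4L2, at the bottom, spreads over several log2 units with the LV libraries to the right.

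A single gene stood out in the other direction. NDUFA4L2 (ENSFDAG00000001904), a relative of the complex IV subunit NDUFA4 that is known to be induced by HIF-1 in low oxygen, had a standard deviation of 2.07 log2 CPM, and 98.1% of tested genes varied less. Its level ran from 0.188 CPM, a single count in an estradiol library of queen MAF006, to 264 CPM, or 2552 counts, in the LV of queen DVF007. The next most variable of the 22 genes, MRPL38 of the large ribosomal subunit, had a standard deviation of 0.51 log2 CPM and a level between 9.70 CPM and 64.2 CPM. Of the respiratory chain, 3 more genes varied moderately. COX6A1, a complex IV subunit, ranged from 182 CPM to 876 CPM (standard deviation 0.39 log2 CPM). ATP5F1E, the epsilon subunit of ATP synthase, ranged from 44.0 CPM to 205 CPM (0.39 log2 CPM). NDUFAF4, an assembly factor of complex I, ranged from 31.7 CPM to 106 CPM (0.46 log2 CPM).

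To ask how the mitochondrial genes differ between the skeletal sites, vehicle libraries of the long bones and LV were compared within 13 animals, with animal as a block. NDUFA4L2 was lower in the long bones. In the 13 long bone cultures its level was between 2.17 CPM and 11.7 CPM with a median of 8.86 CPM, and in the 13 LV cultures it was between 9.29 CPM and 228 CPM with a median of 42.5 CPM. The LV were higher than the long bones in 12 of the 13 animals, and the groups overlapped only through the LV culture of helper WEF002 (9.29 CPM in the LV and 10.7 CPM in its long bones). The log2 fold change of long bones against LV was -2.67 (standard error 0.36, 95% interval from -3.43 to -1.91, edgeR adjusted p = 2.31e-04). Between the 13 pairs the LV were 5.99-fold higher on average on the log scale, with an exact two-sided sign permutation p of 0.000488, where 0.000244 is the smallest that 13 pairs allow. Without WEF002 the log2 fold change was -2.89, and over all leave-one-out fits it was between -2.89 and -2.53. In animals with estradiol libraries of both bones, compared in place of vehicle, it was -3.32. The fit within nonbreeders gave -2.24 and that within 3 queens -3.93. These queens were all between 1004 and 1006 days old and the nonbreeders were of mixed age, so these fits differ in both status and age. Each of these queens had a helper sister of nearly the same age. The long bone and LV levels were 11.7 and 228 CPM in queen DVF007, and 4.15 and 54.2 CPM in her sister DVF008. They were 8.33 and 138 CPM in LAF007, and 9.28 and 154 CPM in LAF008. In WAF014 they were 3.27 and 42.5 CPM, and in WAF011 11.2 and 123 CPM. Status at equal age was not tested. The subsets for these fits were chosen after the data were seen.

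**Figure D2:**
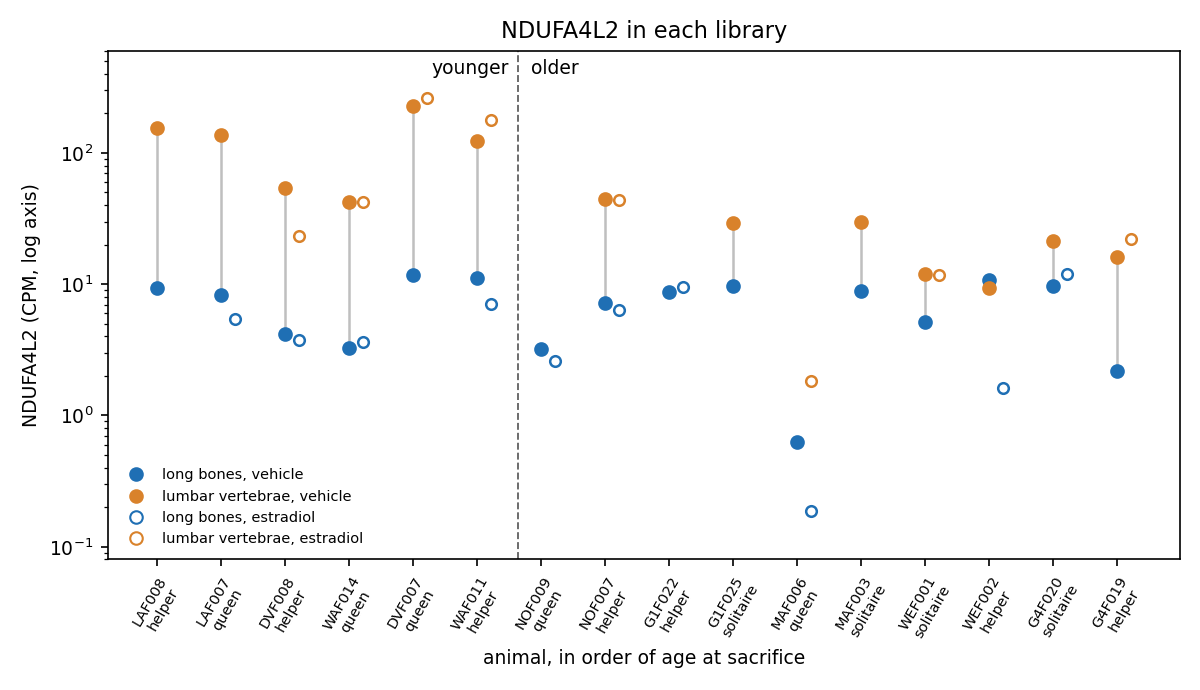
Level of NDUFA4L2 (y axis, CPM on a log axis) in each library of the 16 animals, ordered by age on the x axis, with filled points for vehicle, open points for estradiol and a grey line between the vehicle cultures of an animal. LV points lie above long bone points in every animal with both vehicle cultures except WEF002, and the lines are longest left of the dashed line, in the younger animals.

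NDUFA4L2 was the 1 of the 22 genes that passed a false discovery rate (FDR) of 10% between the bones, where 755 of all tested genes, 6.83%, did. The subunit or assembly genes SDHAF2, COX15, COX6A1, ATP5F1B and NDUFAF4 had log2 fold changes between -0.19 and 0.06. At an FDR of 20% it was again the only one, against 10.4% of all genes, and 2 of the 22 had an unadjusted p under 0.05, against 16.3%. Of the 22 genes, 15 were below 0 and 7 above 0 in the long bones, where 56.0% of all genes were above 0, with a median log2 fold change of -0.08, against 0.04 for all genes. MRPS36, named as a ribosomal protein and now assigned to the 2-oxoglutarate dehydrogenase complex, was next by p. Its level was between 18.1 CPM and 46.1 CPM (median 27.5 CPM) in the long bones and between 26.3 CPM and 54.4 CPM (median 30.0 CPM) in the LV, so that the groups overlapped widely. The long bones were lower in 11 of 13 animals and the log2 fold change was -0.30 (standard error 0.13, edgeR adjusted p = 0.241), which did not pass an FDR of 20%. Without helper WAF011 it was -0.36 with an adjusted p of 0.0923 in the same edgeR fit, the lowest among the leave-one-out fits, and without DVF008 it was -0.24 with an adjusted p of 0.448, the highest. With estradiol libraries in place of vehicle it was -0.09 with an adjusted p of 0.875. ATP5F1E ranged from 44.0 CPM to 150 CPM in the long bones and from 63.8 CPM to 205 CPM in the LV, also with wide overlap. Its log2 fold change was -0.29 (standard error 0.15, edgeR adjusted p = 0.348), with -0.08 for the estradiol libraries and -0.14 in the older animals alone.

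ATP5F1B differed little between the bones. Its 13 long bone cultures lay between 598 CPM and 775 CPM and its 13 LV cultures between 577 CPM and 776 CPM, with medians of 685 CPM and 674 CPM. The log2 fold change was 0.04, and 95% intervals of the 21 genes other than NDUFA4L2 are drawn in the plot of fold changes. The import genes TIMM17A, a subunit of the TIM23 translocase, TIMM8A, a small chaperone of the intermembrane space, and TOMM70, the outer membrane receptor for carrier precursors, had log2 fold changes of 0.00, -0.16 and 0.02, and none passed an FDR of 20%. The carriers SLC25A12, SLC25A13 and SLC25A24, the last a calcium-regulated carrier of ATP-Mg and phosphate, had -0.09, 0.05 and -0.05.

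Blood cell genes differed between the bones in the same fit. Of 14 leukocyte genes, 13 were higher in the long bones and 4 passed an FDR of 10%, with a median log2 fold change of 0.60. LAPTM5, a lysosomal membrane protein of leukocytes, was at 1.12 (standard error 0.28, edgeR adjusted p = 0.0247). Of the 12 stromal and osteoblast genes, 8 were above 0 in the long bones and 4 below, with a median log2 fold change of 0.16. Only PHEX, an endopeptidase of osteoblasts and osteocytes, passed an FDR of 10%. It was lower in the long bones, with a log2 fold change of -0.62. COL1A1, the collagen of bone matrix, was at 0.51 (standard error 0.24, edgeR adjusted p = 0.299). The part of these cells in the difference in NDUFA4L2 was not tested. Across animals, the correlation of NDUFA4L2 with the mean of the leukocyte genes was -0.54 (Pearson, 16 animals, permutation p = 0.0284, adjusted 0.110) in the long bones. Spearman's rho was -0.48 (permutation p = 0.0637, adjusted 0.220), and r was -0.44 without the 2 animals farthest from the median. In the LV r was -0.73 (14 animals, permutation p = 0.00247, adjusted 0.0274) and rho was -0.67 (permutation p = 0.0115, adjusted 0.0816), with r of -0.59 without the 2 farthest animals. Within the 8 older animals r was -0.27 in the LV, and within the 6 younger ones it was -0.56, so that the pooled value was larger than that within either set.

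The size of the bone difference in NDUFA4L2 split the animals by age. The ages fall into 2 sets, 6 animals of 3 colonies between 1003 and 1006 days and 10 animals of 5 colonies between 1075 and 1232 days. In the LV vehicle cultures of the younger animals, NDUFA4L2 lay between 42.5 CPM and 228 CPM, with a median of 130 CPM. In those of the 7 older animals it lay between 9.29 CPM and 44.9 CPM, with a median of 21.5 CPM, so that the sets overlapped by a narrow margin. In the long bones the sets overlapped throughout, from 3.27 CPM to 11.7 CPM in the younger animals and from 0.629 CPM to 10.7 CPM in the older. The log2 fold change of long bones against LV was -3.81 in the younger animals and -1.58 in the older, with edgeR adjusted p of 1.02e-04 and 0.0239. The difference between these was -2.21 (standard error 0.40, edgeR adjusted p = 0.0460), in a test in which 28 genes, 0.253%, passed an FDR of 10% and NDUFA4L2 was the 1 of the 22. An unadjusted p under 0.05 was found for 8.43% of all genes. Leaving out each animal in turn moved it from -2.39 to -1.88, with adjusted p between 0.0240 and 0.166, and passed an FDR of 10% in 6 of the 13 fits. It was lost without G1F025, G4F020, MAF003, WEF001, DVF007, LAF007 or LAF008 (-2.22, -2.12, -2.23, -2.18, -2.14, -2.17 and -2.19). This split was made after the values were seen. Age, colony and any date of culture cannot be told apart, and 3 of the 6 younger animals were queens. Depth also differed between the sets. Libraries of the younger animals held 8516460 to 16327339 counts, and those of the older animals 5329563 to 10353102.

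**Figure D3:**
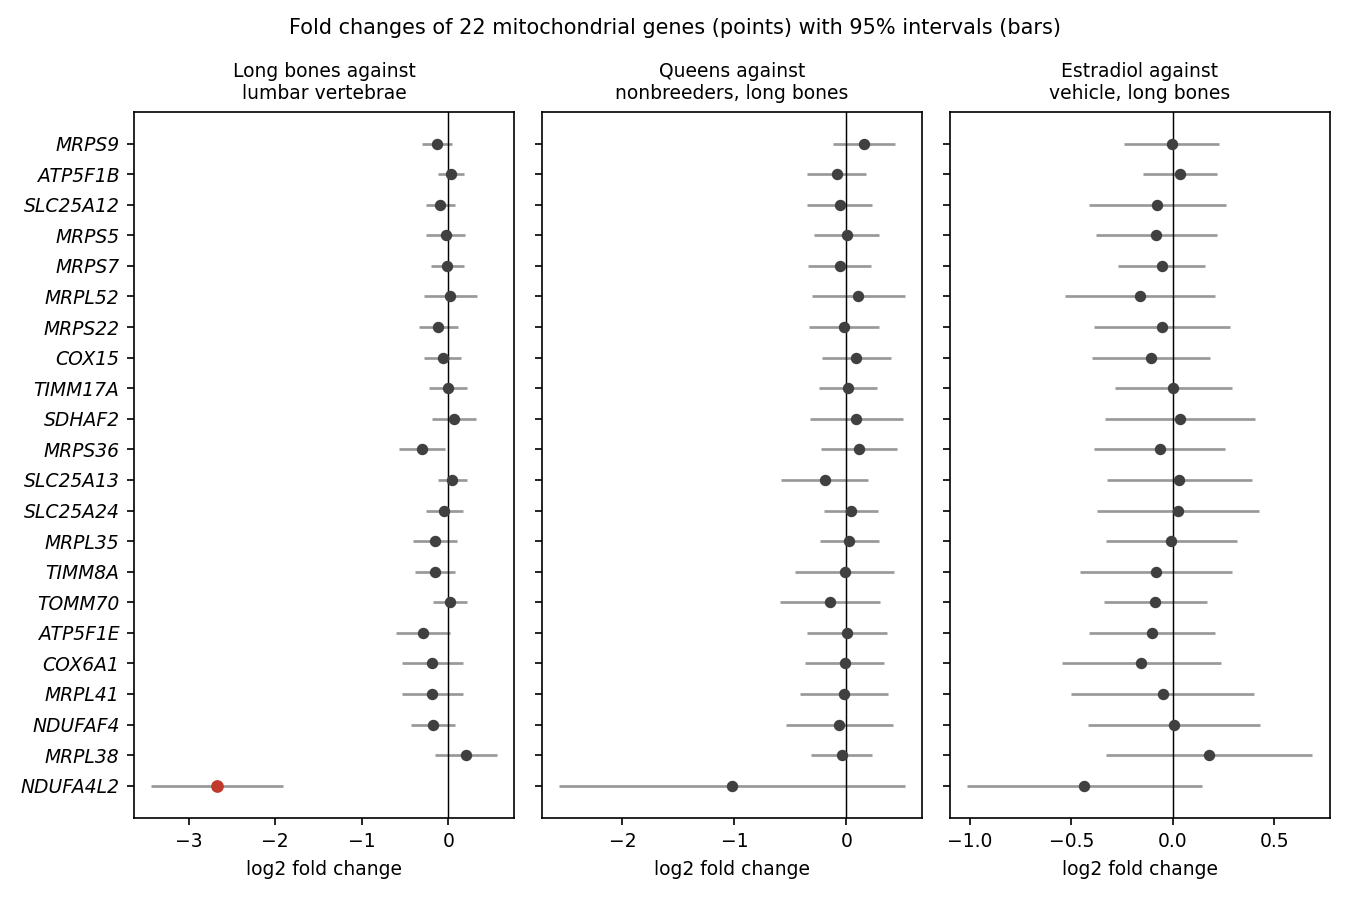
Points are log2 fold changes (x axis) of the 22 genes in long bones against LV, queens against nonbreeders in the long bones, and estradiol against vehicle in the long bones, with bars for the 95% intervals and red for an FDR under 10%. NDUFA4L2 between the bones (-2.67) is the only red point, and the axes differ in scale between the panels.

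To ask whether breeding status changes mitochondrial genes, the libraries of an animal were added within a bone type and 5 queens were compared with 11 nonbreeders in the long bones, with natal colony as a block. None of the 22 genes passed an FDR of 10% or 20% in edgeR, and none had an unadjusted p under 0.05, where 8.69% of all tested genes did. At an FDR of 20%, 1.48% of all genes passed, and at 10% none of the 11047 did. DESeq2 and limma voom also called 0 of the 22 at an FDR of 10%, although they called 391 and 728 of all genes. Of the 22 log2 fold changes 10 were above 0, as were 52.3% of those of all genes. Their median was -0.02, and their median size regardless of sign was 0.06, against 0.20 for all genes. The 9 genes named as ribosomal proteins lay between -0.06 and 0.16.

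NDUFA4L2 had the smallest p of the 22. In the long bones of the 5 queens its level was -0.93, 1.88 and 3.67 log2 CPM at the lowest, median and highest, and in those of the 11 nonbreeders it was 1.26, 3.14 and 3.46 log2 CPM. The queens held both the lowest and the highest animal. The log2 fold change was -1.02 (standard error 0.70, edgeR adjusted p = 0.708). The 2 animals of a colony were compared directly in 5 colonies. The queen was lower than her sister by 4.15, 1.36, 1.16 and 0.485 log2 CPM in 4 of them, MAF006 having the largest difference, and DVF007 was higher by 1.59. Without MAF006, or without her sister MAF003, the log2 fold change was -0.41, and without DVF007 it was -1.66. Without the block for colony it was -0.50. With all 25892 genes that had a count in the fit, the queen difference in NDUFA4L2 was called at an FDR of 10% (log2 fold change -1.05, edgeR adjusted p = 0.0664), with 1005 genes called in that fit against 0 here. MRPS9 was at 0.16 (standard error 0.13, edgeR adjusted p = 0.739), and at 0.05 without the block. SLC25A13, also known as citrin, was at -0.19 (standard error 0.18, edgeR adjusted p = 0.762), and at -0.02 without MAF006.

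Most leukocyte genes had higher values in queens in the same libraries, although none passed an FDR of 10%. Their list was chosen with earlier results of these data known, so these counts are not an independent test. Of the 14, 13 were above 0 in queens, 9 had an unadjusted p under 0.05 in edgeR and 3 passed an FDR of 20%, with a median log2 fold change of 1.52. GPR65, a proton-sensing receptor of leukocytes, had the smallest p and was at 2.83 (standard error 0.53, edgeR adjusted p = 0.114). LAPTM5 in the long bones ranged from 24.1 CPM to 2230 CPM, and its highest library was that of MAF006 with estradiol, which also held the lowest NDUFA4L2. Of the 12 stromal and osteoblast genes, 11 were below 0, with a median of -0.41, and none had an unadjusted p under 0.05. The part of these cell types in the values of NDUFA4L2 was not tested.

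In the LV, 4 queens were compared with 10 nonbreeders. None of the 22 genes passed an FDR of 10% or 20% in edgeR and none had an unadjusted p under 0.05, against 3.43% of all tested genes. DESeq2 and limma voom called none of the 22 at an FDR of 10%. The median of the 22 log2 fold changes was 0.05, with 13 above 0 (51.8% of all genes were), and their median size regardless of sign was 0.08, against 0.15 for all genes. TIMM8A had the smallest p. Its level was 5.43, 5.68 and 6.05 log2 CPM at the lowest, median and highest of the queens and 4.89, 5.38 and 5.82 log2 CPM in the nonbreeders, so that the groups overlapped. Its log2 fold change was 0.27 (standard error 0.19, edgeR adjusted p = 0.999), falling to 0.13 without MAF006. MRPS22, of the small ribosomal subunit, was at 0.16 (standard error 0.15) and NDUFAF4 at 0.17 (standard error 0.17). Without LAF007 they were at 0.03 and 0.06, and without WAF011 at 0.30 each. NDUFA4L2 was at 0.99, 6.23 and 7.91 log2 CPM at the lowest, median and highest of the queens and at 3.30, 4.95 and 7.25 log2 CPM in the nonbreeders. The median was thus higher in queens, while the fit within colonies gave -0.73 on the log2 scale (standard error 0.90, edgeR adjusted p = 0.999). Against their sisters, the queens differed by 2.77 (DVF007), -0.167 (LAF007), -4.01 (MAF006) and -1.85 log2 CPM (WAF014), so that MAF006 had the largest difference. Her only LV library had estradiol and that of her sister MAF003 vehicle. In the fit within colonies, 13 of 14 leukocyte genes, a list chosen with earlier results known, were higher in queens. All 17 cell cycle genes were above 0, with a median of 0.37. Of these, 6 leukocyte genes and no cell cycle gene had an unadjusted p under 0.05. Without regard to colony, the mean of the leukocyte genes was 2.305 log2 CPM in queens, 2.195 in helpers and 2.942 in solitaires. Queens thus lay between the helpers and the solitaires.

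Whether the queen effect differed between the bones was tested as an interaction over 14 animals, with animal and not colony as the block. NDUFA4L2 was the 1 of the 22 genes with an unadjusted p under 0.05, where 4.88% of all genes had one. The queen effect in the long bones minus that in the LV was -1.53 on the log2 scale (standard error 0.62, 95% interval from -2.83 to -0.22, edgeR adjusted p = 0.794). Leaving out each animal in turn moved it from -1.73 to -1.34, and it passed an FDR of 10% in none of these fits. No gene of the 11047 passed an FDR of 10% in this test in edgeR, and DESeq2 called 3 genes, none of them among the 22. Of the 22 values 6 were above 0, against 53.8% for all genes. The queen effects on NDUFA4L2 fitted within colonies, -1.02 (long bones) and -0.73 (LV), lie much closer to each other than the interaction value. Of the 4 queens in this test 3 belonged to the younger animals, whose bone difference in NDUFA4L2 was larger. The test let the bone difference vary with status but not with age, so it does not separate status from age. Sisters of nearly the same age as these queens were among its nonbreeders. TIMM8A followed at -0.24 (standard error 0.16) and MRPS9 at 0.22 (standard error 0.15), with adjusted p of 0.794 each. Without WAF014 TIMM8A was at -0.37, and without MAF006 MRPS9 was at 0.09.

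To ask whether living alone changes mitochondrial genes, 4 solitaires were compared with 7 helpers in the long bones, with colony as a block and queens kept in the fit. More of the 22 genes lay below 0 than above, 17 against 5, with a median log2 fold change of -0.15, where 50.0% of all genes were above 0. None passed an FDR of 10% or 20% in edgeR, each of which 0.00905% of all genes did, and none had an unadjusted p under 0.05, against 8.75% of all genes. DESeq2 called none of the 22 at an FDR of 10%. Without the block for colony the median log2 fold change of the 22 was -0.03. The colonies with 1 solitaire and 1 helper to compare directly numbered 3. TOMM70 was between 6.97 and 7.19 log2 CPM in the solitaires, with a median of 7.02, and between 6.40 and 7.11 log2 CPM in the helpers, with a median of 6.99. The groups overlapped, and the log2 fold change was 0.43 (standard error 0.20, 95% interval from -0.02 to 0.87, edgeR adjusted p = 0.559). Without a block for colony it was 0.10, and without MAF003 or MAF006 it was 0.22. TIMM8A ranged from 4.68 to 5.67 log2 CPM in solitaires and from 5.04 to 5.70 log2 CPM in helpers. Its log2 fold change was -0.41 (standard error 0.20, edgeR adjusted p = 0.559), and it was -0.63 without WEF001 and -0.22 without the block. MRPS7, of the small ribosomal subunit, was at -0.24 (standard error 0.13, edgeR adjusted p = 0.580), but at 0.0022 without the block.

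Most cell cycle and cytosolic ribosome genes also lay below 0 in this comparison, and none passed an FDR of 20%. Of 17 cell cycle genes, 16 were below 0 in the solitaires, with a median of -0.46, and 6 had an unadjusted p under 0.05. Without regard to colony, the mean of the 17 genes was 5.35 log2 CPM in solitaires and 5.296 log2 CPM in helpers. The lower values thus came from the fit within colonies. All 9 cytosolic ribosome genes were below 0, with a median of -0.25 and 2 with an unadjusted p under 0.05. Their part in the values of the mitochondrial genes was not tested. In the LV, where 4 solitaires were compared with 6 helpers, 12 of the 22 mitochondrial genes were above 0 and 10 below, 50.3% of all genes being above 0, and none had an unadjusted p under 0.05 in edgeR, against 2.79% of all genes. None passed an FDR of 10% in edgeR or DESeq2. COX15, which takes part in making the heme of complex IV, was at 0.24 (standard error 0.17, edgeR adjusted p = 0.998). MRPS36 was also at 0.24 (standard error 0.22). NDUFA4L2 was at 1.08 (standard error 0.98) with the block and at -1.51 without it. Without queen MAF006, NDUFA4L2 was at 0.22 and MRPS36 at 0.09, and without WEF001 COX15 was at 0.10. The 2 solitaires with a sister among the helpers differed from her by 0.119 and 0.348 log2 CPM in NDUFA4L2.

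Estradiol was compared with vehicle within animals, of which 10 had both long bone libraries and 7 both LV libraries. None of the 22 genes passed an FDR of 10% or 20% in either bone in edgeR, and none had an unadjusted p under 0.05, where 1.17% (long bones) and 0.498% (LV) of all genes had one. DESeq2 and limma voom called none of the 22. The median log2 fold change of the 22 was -0.05 in the long bones, with 7 above 0 (51.1% of all genes were), and their median size regardless of sign was 0.06, against 0.11 for all genes. In the LV 11 were above 0 and 11 below, with 49.1% of all genes above 0. NDUFA4L2 had the smallest p in the long bones, where its log2 fold change was -0.44 (standard error 0.27, 95% interval from -1.02 to 0.14, edgeR adjusted p = 1.00). It was lower with estradiol in 7 of 10 animals, by 2.61 log2 CPM in WEF002 and 1.02 log2 CPM in MAF006. Without WEF002 the log2 fold change was -0.23. MRPL52, of the large ribosomal subunit, was at -0.16 (standard error 0.17) and COX6A1 at -0.15 (standard error 0.18). Without WEF002 these were at -0.03 and -0.05, and without LAF007 COX6A1 was at -0.07. In the LV the smallest p were those of MRPS9 at -0.13 (standard error 0.11), ATP5F1E at -0.14 (standard error 0.18) and MRPL41 at -0.15 (standard error 0.19). Without WEF001 the last 2 were at 0.0024 and -0.04.

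**Figure D4:**
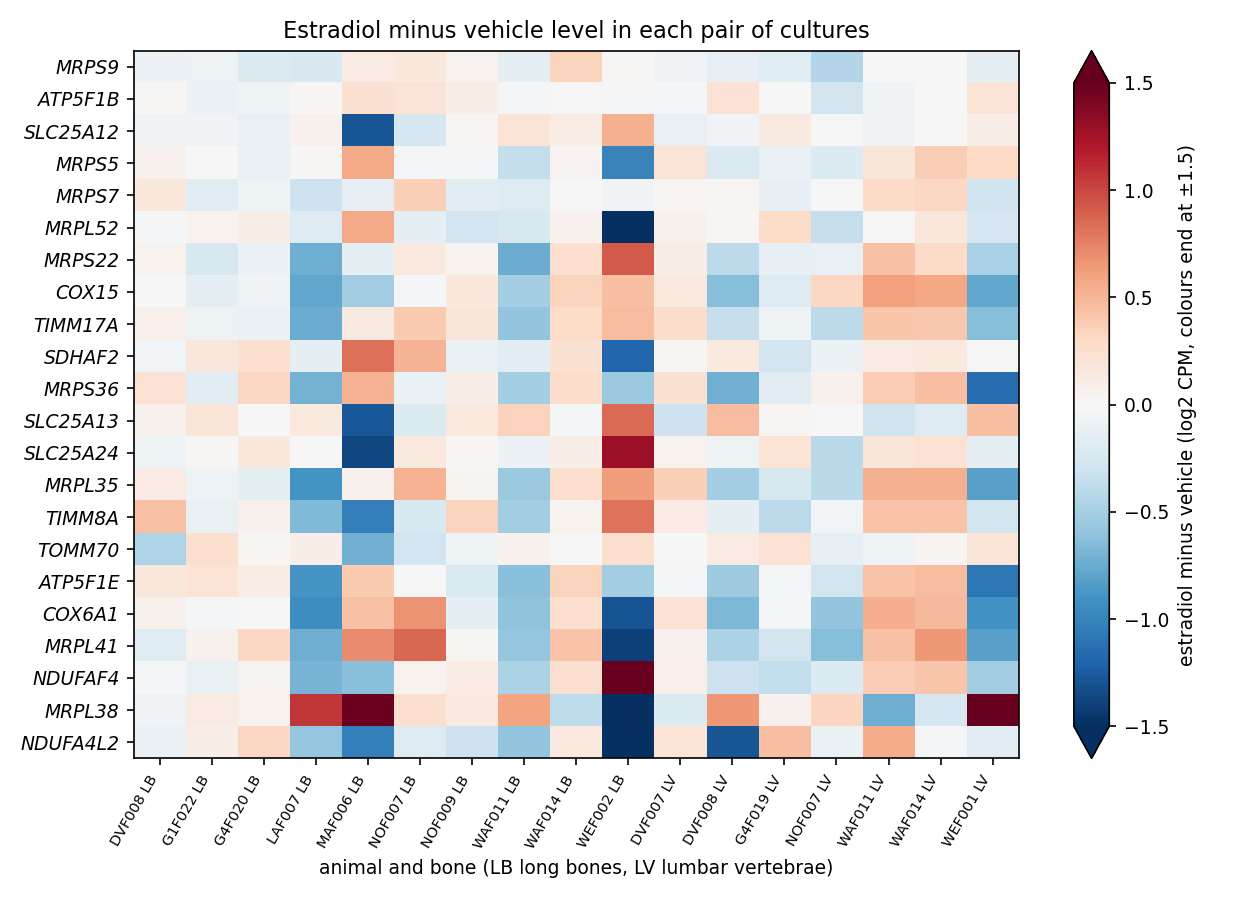
Heat map of the estradiol minus vehicle level (colour, log2 CPM, with colours ending at 1.5 in size) for the 22 genes in rows and each pair of cultures of an animal and bone in columns, red being higher with estradiol and blue lower. The long bone pair of WEF002 holds the deepest blue, -2.61 for NDUFA4L2, and the LV pair of WEF001 the largest increase, 1.76 for MRPL38, while several other pairs are pale throughout.

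The pairs differed in how closely their libraries matched. For the long bones of WEF002, 16 of the 22 genes differed between the estradiol and vehicle libraries by more than 0.5 log2 CPM, with a median size of 0.83 log2 CPM. MAF006 had 14 such genes, LAF007 12 and WAF011 11. Among the long bone pairs of DVF008, G1F022, G4F020, NOF009 and WAF014 and the LV pairs of DVF007 and G4F019 there was none. COX6A1 was lower with estradiol by 0.94 log2 CPM in LAF007, and higher by 0.67 log2 CPM in NOF007. MRPL52 was lower by 1.59 log2 CPM in WEF002 and higher by 0.57 log2 CPM in MAF006.

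Levels of the mitochondrial genes were also compared across animals, each animal being the sum of its libraries in a bone. These animals include sisters, and all genes of an animal share its libraries, so the points are not fully independent. Over the 231 pairs of the 22 genes the long bones had a median Pearson r of 0.17 and the LV one of 0.21, against -0.00275 and -0.000214 for all gene pairs. An r above 0.8 was reached by 4 pairs, 1.73%, in the long bones and 8 pairs, 3.46%, in the LV, where 2.50% and 3.33% of all gene pairs reached it. The share of closely correlated pairs was thus near that of all genes. Of 682 relations computed, which include those with the means of other gene lists, 86 had an adjusted Pearson p under 0.05. The share of all gene pairs at that level was not computed, so this count has no background beside it.

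The pairs described next were picked from the 682 relations after their values were seen. TIMM17A and MRPS7 were the closest pair in the long bones. TIMM17A ranged from 7.24 to 8.30 log2 CPM there and MRPS7 from 5.97 to 6.99 log2 CPM. Pearson's r was 0.954 over 16 animals (permutation p = 1e-05, the smallest that 100000 permutations can give, adjusted 0.00136) and Spearman's rho 0.947 (permutation p = 1e-05, adjusted 0.00409). Without the 2 animals farthest from the median r was 0.935, and it was 0.954 in the older and 0.925 in the younger animals. In the LV r was 0.888 over 14 animals (permutation p = 3e-05, adjusted 0.00170) and rho 0.903 (permutation p = 7e-05, adjusted 0.00682), with r of 0.902 without the 2 farthest animals. MRPL35, of the large ribosomal subunit, followed TIMM17A with r of 0.917 (permutation p = 1e-05, adjusted 0.00136) in the long bones and 0.921 (permutation p = 1e-05, adjusted 0.00136) in the LV. Spearman's rho for this pair was 0.891 (permutation p = 3e-05) and 0.899 (permutation p = 4e-05), and r was 0.866 and 0.854 without the 2 farthest animals.

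MRPL38 ran opposite to TIMM17A, although such strong opposition was rarer among pairs of the mitochondrial genes than among all gene pairs. In the long bones r was -0.82 (16 animals, permutation p = 9e-05, adjusted 0.00323) and rho -0.70 (permutation p = 0.00321, adjusted 0.0391), and r was -0.74 without the 2 farthest animals. In the LV r was -0.82 (14 animals, permutation p = 0.00026, adjusted 0.00591) and rho -0.73 (permutation p = 0.00476, adjusted 0.0470). Without the 2 farthest animals it was -0.62, and in the 6 younger animals it was -0.33. Among the 36 pairs of the 9 ribosomal protein genes r ran from -0.74 to 0.885 in the long bones, and from -0.86 to 0.91 among those of the LV.

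**Figure D5:**
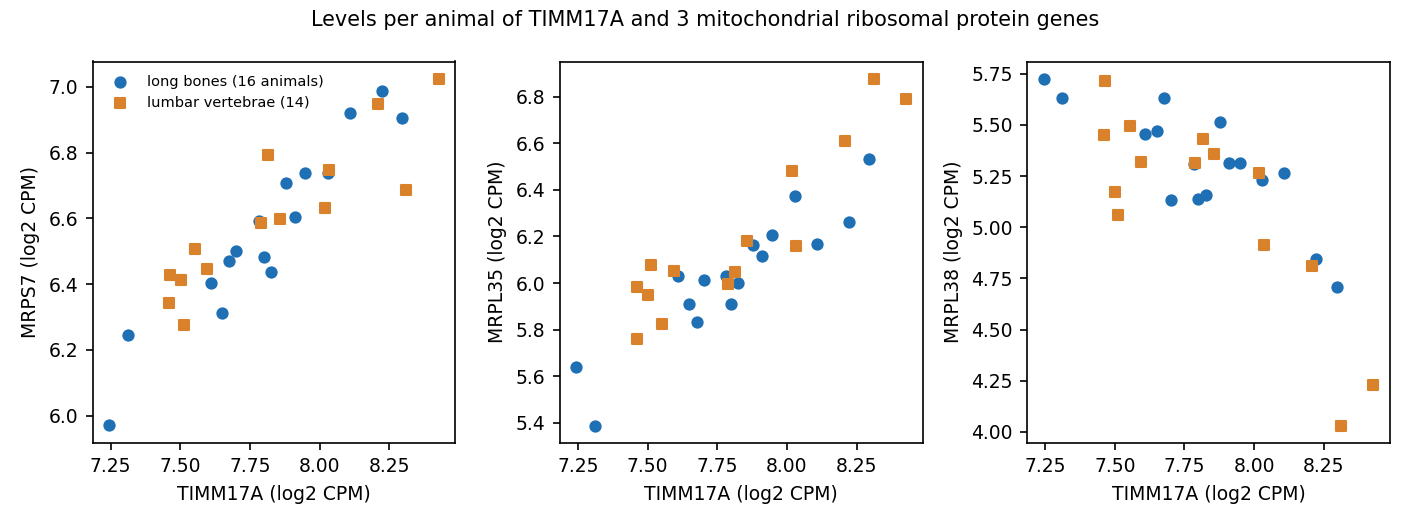
Each point is an animal in the long bones (blue circles) or LV (orange squares), placed by its level of TIMM17A on the x axis and of MRPS7, MRPL35 or MRPL38 on the y axis of the 3 panels (log2 CPM). MRPS7 and MRPL35 are higher where TIMM17A is higher (r of 0.954 and 0.917 for the circles), and MRPL38 is lower (r of -0.82).

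The same genes followed lists outside the mitochondrion. TIMM17A correlated with the mean of the 17 cell cycle genes at 0.931 in the long bones (permutation p = 1e-05, adjusted 0.00136, rho 0.876, permutation p = 2e-05) and at 0.766 in the LV (permutation p = 0.00080, adjusted 0.0133, rho 0.745, permutation p = 0.00289). Without the 2 farthest animals r was 0.878 and 0.835. The part of the cell cycle genes in the relation of TIMM17A and MRPS7 was not tested. COX6A1 correlated with the mean of the cytosolic ribosome genes at 0.933 in the long bones (permutation p = 2e-05, adjusted 0.00170, rho 0.735, permutation p = 0.00180). Without the 2 farthest animals, WEF002 among them, it was 0.75. COX6A1 was at 9.22 log2 CPM in the long bones of WEF002, and the next highest animal, WEF001, was at 8.46 log2 CPM.

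Other mitochondrial genes were taken as a separate list of 46, of which 45 were tested. Between the bones 5 were lower and 1 higher in the long bones at an unadjusted p under 0.05, which 16.3% of all genes had. An FDR of 10% was passed by 6.83% of all genes and by 2 of the 45. These were CMC1, which takes part in complex IV assembly, at -0.37 (standard error 0.12, edgeR adjusted p = 0.0944), and NADK2, the mitochondrial NAD kinase, at -0.45 (standard error 0.15, edgeR adjusted p = 0.0958). In queens of the long bones 1 of the 45 had an unadjusted p under 0.05, against 8.69% of all genes. It was COA5, also of complex IV assembly, at 0.44 (standard error 0.17, edgeR adjusted p = 0.477). In the solitaires of the long bones 4 were lower and 1 higher at that level, which 8.75% of all genes reached. Of the 45, 32 were below 0, with a median of -0.16, where 50% of all genes were above 0. MRM2, a methyltransferase of mitochondrial ribosomal RNA, was at -0.69 (standard error 0.21, edgeR adjusted p = 0.522). None of the 45 passed an FDR of 10% in the queen, solitaire or estradiol comparisons in edgeR.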

How the data were processed

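Per the study's methods and the submitters' processing notes, the authors trimmed reads with cutadapt 2.3, mapped them with STAR to the DMR_v1.0 assembly and counted uniquely mapped reads on genes with HTSeq. The deposited values are raw counts per gene for 47 libraries of poly(A) RNA, and whether strand was used in counting is not given in the sources used here. No column was left unmapped (0). Depth was 5329563 to 16327339 counts per library, and low genes such as NDUFA4L2 in MAF006 rest on few counts. The 22 genes and all lists were chosen with earlier results of these data known.

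Genes with at least 2 CPM in at least 12 libraries (25%) were tested with the quasi-likelihood test of edgeR 4.0.16 (R 4.3.3) and TMM factors, with Benjamini-Hochberg adjustment over 11047 genes. Log2 CPM used a prior count of 2 and TMM factors, and CPM used library totals. Levels were not compared between genes, as transcript lengths were not used here. For status, libraries of an animal were added within a bone and natal colony was a block. For bone and estradiol, animal was the block. Colony was inferred from the animal names, and some sisters had different fathers. Deviations of sisters correlated at 0.0403 to 0.811 (median 0.446) in 8 long bone pairs and at 0.117 to 0.585 (median 0.355) in 6 LV pairs, against medians of -0.127 and -0.0612 between colonies. Animals are the replicates. In edgeR the p-values for bone, estradiol and the interaction measure how differences within an animal vary from animal to animal. Those for status measure the spread between animals of the same colony. Any of the 22 genes could be named, with full values for those past an FDR of 20% and the 3 with the smallest p per comparison. From other lists, those past an FDR of 10%, the smallest p, LAPTM5 and COL1A1 could be named. Alternatives were DESeq2 1.42.0 and its size factors, limma 3.58.1 voom, no filter, no block, vehicle libraries only and leaving out each animal. The subsets by age, status and treatment for the bone comparison were added after the data were seen. The edgeR steps were tested on simulated data. Figures and correlations were made in python 3.11.15.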

Additional observations from a re-analysis of the deposited data

Results flagged for a closer look

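Within groups of 4 to 7 libraries, 176 tests asked whether the highest or lowest library stood far from the rest for its group's range, and 10 did. Chance gives about 1 in 20 such groups, and 10 of 176 is near that share. Values are log2 CPM. The long bone libraries of helper WEF002 gave 4 of them. With vehicle, MRPL52 was highest at 7.23 (nearest 6.04), SLC25A12 lowest at 4.71 (nearest 5.10) and TOMM70 lowest at 6.32 (nearest 6.88), and with estradiol MRPL38 was lowest at 4.02 (nearest 5.30). The estradiol long bone library of queen MAF006 was highest for MRPL52 at 6.29 (nearest 5.65) and for MRPS9 at 5.38 (nearest 5.09). WAF011 with estradiol was highest for ATP5F1E in the LV at 7.03 (nearest 6.49) and for SDHAF2 in the long bones at 5.19 (nearest 4.99). TIMM8A was highest in the estradiol long bone library of queen WAF014 at 5.52 (nearest 4.97), and MRPL52 was lowest in the vehicle long bone library of solitaire WEF001 at 5.46 (nearest 5.79).

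The difference between the bones in NDUFA4L2 was itself unequal in the younger and older animals, by -2.21 on the log2 scale in the edgeR test of that difference, a comparison chosen after the values were seen.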

How the results depend on the processing

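For counts of the 22 genes past an FDR of 10%, 103 leave-one-out values stayed within 1.5 times the reported count and 1 did not. Under other settings 43 stayed and 1 did not. The reported count was 0 in every comparison except that of the bones. Most of these values thus only set 0 against 0. The bone count ranged from 1 to 2 when each animal was left out, the 2 arising without WAF011 through MRPS36. The queen count in the long bones was 1 with no filter on low counts, against 0, through NDUFA4L2. Counts over all genes moved more. In the queen comparison of the long bones 391 genes passed with DESeq2, 728 with limma voom, 1005 with no filter and 76 with vehicle libraries only, against 0. In the LV these were 105, 158, 370 and 0, against 0. Between the bones 1070 passed with DESeq2 and 251 with no block, against 755. The cause was not tested.

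Without the block for colony or animal, no count of the 22 genes changed (1 between the bones and 0 elsewhere). Some single genes moved by over 1.5 times without the block, NDUFA4L2 in queens of the long bones to -0.50, MRPS9 there to 0.05, NDUFAF4 in queens of the LV to 0.38, in solitaires of the long bones TOMM70 to 0.10 and TIMM8A to -0.22, MRPS36 in solitaires of the LV to 0.14, and with estradiol in the long bones MRPL52 to -0.24 and COX6A1 to -0.28. MRPS7 in solitaires of the long bones was at 0.0022 and NDUFA4L2 in solitaires of the LV at -1.51. Depth limits NDUFA4L2 in MAF006, at 1 and 4 counts in the long bones.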
